A study of Mus musculus with 6 samples.

Results

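The long intergenic noncoding RNAs (lincRNAs) expressed in immortalized cardiosphere-derived cells (iCDCs) of the mouse were followed through treatment with 5-azacytidine. A gene was taken as expressed where its row in the deposited table carried the lincRNA class, lay on chromosomes 1 to 19 and had at least 10 reads in each of the 3 control libraries or in each of the 3 induced libraries. H19, Meg3, Rian and Mirg were left out. This gave 233 genes of the 54532 in the table and of 4915 autosomal lincRNA rows, 3318 of which had no read in any of the 6 libraries. The 233 genes comprised 157 with at least 10 reads in all 6 libraries, 42 that reached the minimum in the control libraries alone and 34 that reached it in the induced libraries alone. Members were thus selected on their read counts in these same libraries, so the last 2 classes are described with no test, and calls and list counts are given only for genes with at least 10 reads in all 6 libraries.

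iCDCs, which the study's methods call iECDCs, are cells grown out of the epicardium of the heart ventricle of C57BL/6 mice through a free-floating sphere stage, infected with a lentivirus carrying human telomerase reverse transcriptase (hTERT) and selected with puromycin, and both groups carried the transgene and were at passage 30. The 3 control libraries came from cells without the drug. The 3 induced libraries came from cells given 10 µM 5-azacytidine, a cytidine analog that is built into DNA and traps DNA methyltransferases, for 3 days and then kept for 4 weeks in IMDM medium with 2% fetal bovine serum, as the labels give it. For cardiac induction the study's methods name another medium and a shorter time, so length and medium are uncertain. The drug, the low serum and the time in culture therefore cannot be told apart in this comparison, and all libraries stem from 1 immortalized line.

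LincRNAs are transcribed, capped and mostly spliced like messenger RNAs from loci outside protein-coding genes. Some act as structural RNAs of nuclear bodies, some are carriers of small RNAs that are cut out of their introns or exons, and some are transcribed from a promoter shared with a coding gene that runs the opposite way. They are as a class less abundant and more restricted to particular cell types than messenger RNAs, and DNA methylation can be among the marks of a silent promoter.

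Libraries held 19041133 to 19823369 assigned reads. Counts were scaled by the trimmed mean of M-values (TMM) and are given as CPM, reads scaled to library depth, unless FPKM, which is also scaled to gene length, is named. Of the fixed cell type markers, 5 of 7 leukocyte genes (Ptprc, Itgam, Adgre1, Tyrobp and Cd52) had 0 reads in every library, whereas Cd68 rose from 1.95 ± 0.217 to 29.1 ± 2.77 CPM and Csf1r fell from 22.6 ± 1.05 to 10.9 ± 0.673 CPM (± SD, n = 3). Summed leukocyte CPM was 23.6 to 25.8 in control and 36.4 to 42.7 in induced libraries. The 6 endothelial markers together stayed under 1 CPM in each library. The 6 epicardial markers, led by Upk3b, were all detected and together moved from 383.5 to 399.4 CPM in control libraries to 1253 to 1397 CPM in induced libraries. Of these 5 were higher, and Tbx18 was lower, at 63.6 ± 4.89 CPM in control and 50.6 ± 4.59 CPM in induced libraries (± SD, n = 3, and log2 fold change -0.33, edgeR adjusted p 4.29e-04). The 3 cardiosphere surface markers Eng, Thy1 and Ly6a were present in both groups. Among 8 cardiomyocyte markers, Myh6, Myh7, Actc1, Nppa and Pln had at most 6 reads summed over a group. Ryr2 had 1 read summed over control and 29 over induced libraries. Tnni3 had 90 and 115 reads and was not called. Tnnt2 accounted for most of a summed level of 13.1 to 16.1 CPM in control and 58.9 to 62.7 CPM in induced libraries. The part of these shifts in the lincRNA levels was not tested, and in bulk RNA fewer cells of a type and less RNA per cell cannot be told apart.

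The expressed lincRNAs were short, few-exon genes of low level. Among the 157 genes the median of the longest exon number was 3 and the median length 2348 bases, against 9 exons and 4536 bases for 11784 coding genes that also had at least 10 reads in all 6 libraries. Their median FPKM was 1.11 in control and 1.07 in induced cells, against 6.53 and 6.69 for those coding genes. GC content was 47.6% at the median, beside 49.7% for coding genes. RefSeq listed 144 of the 233 as long noncoding RNA, 12 as protein-coding and 4 as pseudogenes, and 73 had no RefSeq match. Reads could not always be placed: 35 of the 233 shared over 20% of their exon bases with another gene or over 20% of their 50-base words with other transcripts.

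At the edge of the rule, 12 lincRNA genes reached exactly 10 reads in their weakest library of a qualifying group, among them the snoRNA host Snhg10 with 10, 13 and 14 reads in control and 10, 12 and 5 reads in induced libraries. Another 16 stopped at 9, including Lncpint (30 reads summed over control and 32 over induced libraries), Halr1 (48 and 42) and Gm11815 (0 and 46).

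The 233 members took 0.212% to 0.216% of all reads in control libraries and 0.268% to 0.321% in induced libraries. Other lincRNAs, including those left out by name, are not in this share. Malat1 made up 25.8% to 26.5% of the member reads in control and 45.6% to 52.2% in induced libraries. Without Malat1 the share of the members was 0.157% to 0.159% in control and 0.146% to 0.154% in induced libraries.

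Of the 157 lincRNAs detected in all libraries, 63 differed between induced and control cells, 23 higher and 40 lower (edgeR quasi-likelihood test, two-sided, Benjamini-Hochberg adjusted p under 0.05 over all 14246 genes tested). This was 40.1% of them, 14.6% higher and 25.5% lower. Among all 12860 genes with at least 10 reads in every library 65.4% were called, 32.4% higher and 33.0% lower. The CPM ranges of the groups did not overlap for 76 of the 157 (48.4%), against 69.2% of those genes. Log2 fold changes of the lincRNAs ran from -4.10 to 3.12 with a median of -0.11 and quartiles of -0.53 and 0.30. The median over all 12860 genes was -0.01, with quartiles of -0.34 and 0.32. Of the called genes, 8 lincRNAs rose and 14 fell by 2-fold or more, beside 6.68% and 6.23% of the 12860 genes.

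Genes of low level were called less often, and most lincRNAs were of low level. Under 2 CPM, 17 of 65 lincRNAs (26.2%) and 26.0% of all 904 genes were called. Between 2 and 5 CPM, 25 of 55 lincRNAs (45.5%) were called beside 51.8% of 1234 genes. At 20 CPM and above, 10 of 14 lincRNAs (71.4%) were called beside 73.8% of 7562 genes. In the middle range of 5 to 20 CPM, 11 of 23 lincRNAs (47.8%) were called beside 62.0% of 3160 genes. From the lowest range to the highest, the called lincRNAs were 6 higher and 11 lower, 10 and 15, 1 and 10, and 6 and 4. The share by direction over all genes of each range was not taken, so these splits have no background beside them. In the plot of level against change most lincRNAs crowd at the left, where the spread of all genes is wide and few pass the test.

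**Figure D1:**
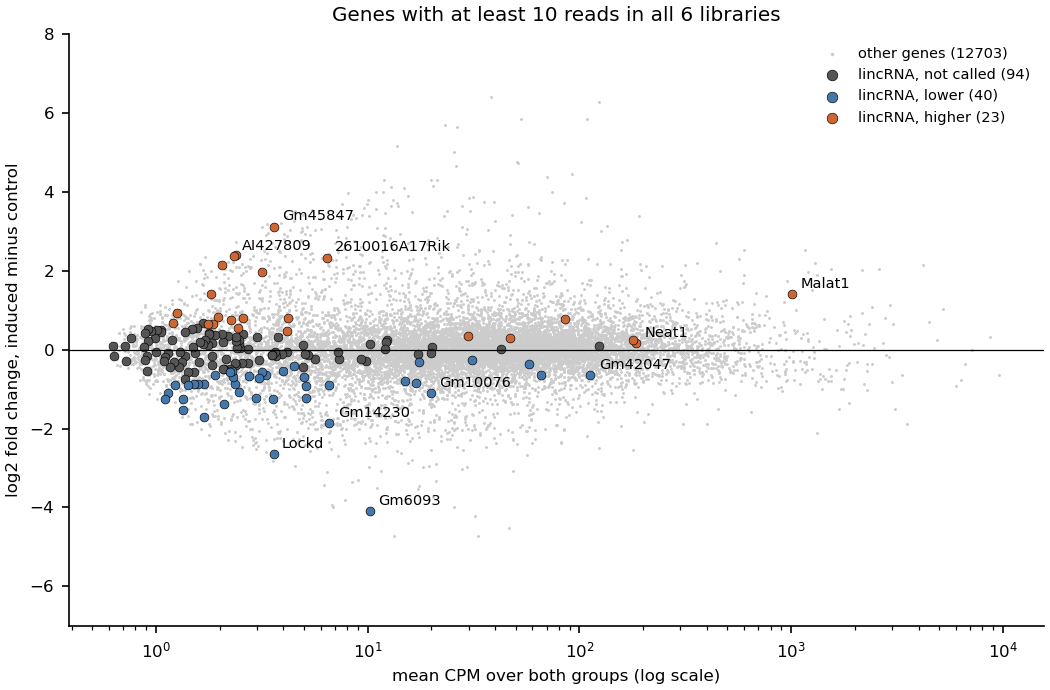
Log2 fold change of induced minus control cells against mean CPM over both groups (log scale) for genes with at least 10 reads in all 6 libraries; coloured points are the 157 lincRNAs (23 higher, 40 lower, 94 not called) and grey points the other genes. Most lincRNAs lie below 5 CPM, and Malat1 stands alone at the right end.

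The 3 lincRNAs known for roles in nuclear architecture and genome upkeep were all higher in induced cells, by very different amounts. Malat1 (ENSMUSG00000092341, chromosome 19, 5795690 to 5802672, minus strand, GRCm38), an unspliced RNA of nuclear speckles, was at 556, 560.4 and 543 CPM in control libraries and 1246, 1678 and 1478 CPM in induced libraries. All induced libraries lay above all controls and were themselves more spread out. The means of 553 ± 9.11 and 1467 ± 216 CPM (± SD, n = 3) gave a log2 fold change of 1.41 (SE 0.07; edgeR adjusted p 5.97e-12). Per length Malat1 was also the most abundant of the 233, at 78.5 ± 1.14 FPKM in control and 209.9 ± 30.6 FPKM in induced cells.

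Neat1 (chromosome 19, 5824708 to 5845478, minus strand), the scaffold RNA of paraspeckles that lies next to Malat1, moved from 172, 178 and 175 CPM in control to 188, 195 and 205 CPM in induced libraries. The groups did not overlap, but the log2 fold change was only 0.17 (SE 0.05; edgeR adjusted p 0.00631). 2900097C17Rik, which RefSeq names Norad and which binds Pumilio proteins, was at 165, 164 and 162 CPM in control and 185, 212 and 188 CPM in induced libraries, a log2 fold change of 0.25 (edgeR adjusted p 5.23e-04). 39.5% of its 50-base words also occur in other transcripts, mainly Gm7292, so its count is less certain. In the whole list of RNAs of nuclear bodies, chromatin and genome upkeep, other classes included, 6 reached 10 reads in all libraries. Of these 6, with 2900097C17Rik among them, 5 were higher and none lower (median log2 fold change 0.40, beside -0.01 for all such genes, of which 32.4% were called higher). Of those outside the lincRNA class, the imprinted Peg13 (log2 fold change 1.41) and Airn (0.55) were higher. Kcnq1ot1 (log2 fold change 0.13, edgeR adjusted p 0.634) was not called.

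Most of the listed host genes of small nucleolar RNAs (snoRNAs) were lower in induced cells. The list of 23 symbols is not complete, and Snhg11 is the only gene on it of the coding class. These genes carry snoRNAs, the guides of ribosomal RNA modification, in their introns, and their spliced product is often short-lived. Of 6 lincRNAs on this list, 4 were lower, Snhg20 did not pass the test, and Snhg10 reached the minimum in control libraries alone. Epb41l4aos (chromosome 18, 33794892 to 33795986, plus strand) was at 18.7, 18.5 and 19.7 CPM in control and 11.4, 9.56 and 11.7 CPM in induced libraries, without overlap of the groups, and had a log2 fold change of -0.80 (SE 0.10; edgeR adjusted p 8.37e-07). Snhg18 (chromosome 15, 32240565 to 32244662, minus strand) was at 64.4, 63.3 and 67.5 CPM in control and 51.1, 43.1 and 56.2 CPM in induced libraries (log2 fold change -0.38, edgeR adjusted p 2.19e-04). Its groups did not overlap. It lies on chromosome 15, where the median over 561 tested genes was itself -0.24. Pvt1 and Gm26760, described below, lie on this chromosome too.

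Snhg6 fell from 33.9 ± 1.62 to 28.4 ± 2.05 CPM and Snhg12 from 19.4 ± 1.71 to 15.6 ± 1.86 CPM (± SD, n = 3), with edgeR adjusted p of 0.00442 and 0.00868 and log2 fold changes of -0.26 and -0.32. Without control replicate 3 the change of Snhg12 was -0.24 and no longer passed the test. Snhg20 was at 5.97, 6.52 and 5.71 CPM in control and 6.16, 3.99 and 5.39 CPM in induced libraries, and these ranges overlapped (edgeR adjusted p 0.230).

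The same list holds 15 further host genes that the table puts in other classes. Over the 18 host genes with at least 10 reads in all libraries, 15 were lower and 1 higher, with a median log2 fold change of -0.47, beside 33.0% called lower among all such genes and their median of -0.01. The largest falls among the others were those of Snhg4 (-1.50), 1110038B12Rik (-1.39), Zfas1 (-1.39) and Snhg8 (-1.14). Gas5, a growth-arrest RNA that binds the glucocorticoid receptor, was at 105, 113 and 106 CPM in control and 87.2, 77.97 and 97.3 CPM in induced libraries (log2 fold change -0.31, edgeR adjusted p 6.11e-04). Snhg11 was the exception, rising from 8.05 ± 1.19 to 19.3 ± 2.43 CPM (± SD, n = 3), and Snhg14 (log2 fold change -0.37, edgeR adjusted p 0.250) did not pass the test. The snoRNAs themselves were not analysed here.

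**Figure D2:**
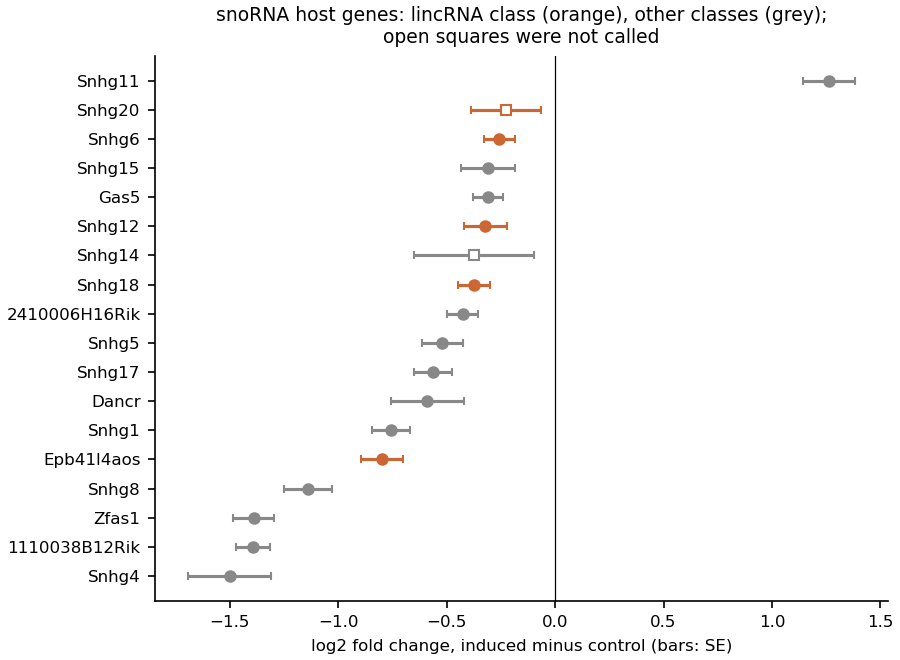
Log2 fold change of induced minus control cells for the 18 listed snoRNA host genes with at least 10 reads in all 6 libraries. Bars give the SE, orange marks the lincRNA class, grey the other classes, and open squares did not pass the test. All but Snhg11 lie left of 0, from -1.50 for Snhg4 to -0.23 for Snhg20.

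Beyond these lists, the largest rises were in weakly expressed and little-studied genes. Gm45847 (chromosome 7, 123031415 to 123068305, plus strand) went from 0.658, 1.02 and 0.551 CPM in control to 6.53, 6.99 and 5.92 CPM in induced libraries, with a log2 fold change of 3.12 (SE 0.23; edgeR adjusted p 8.15e-10). Gm32443 went from 0.658, 0.865 and 0.751 to 3.50, 4.62 and 3.98 CPM (log2 fold change 2.40). In both, every induced library was several times above every control library.

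AI427809 (chromosome 4, 53261356 to 53270232, minus strand), which RefSeq names Mexis and which is known from macrophages as an amplifier of the cholesterol exporter Abca1, was at 0.658, 0.764 and 0.851 CPM in control and 4.99, 3.68 and 3.09 CPM in induced libraries. Its log2 fold change was 2.36 (SE 0.27; edgeR adjusted p 3.57e-07). Abca1, whose start site lies 110337 bases away on the same strand, moved the other way, from 536 ± 16.1 to 432 ± 41.4 CPM (± SD, n = 3, and log2 fold change -0.31, edgeR adjusted p 1.04e-04). Gm20744 was at 1.30 ± 0.215 CPM without and 5.05 ± 0.397 CPM after induction and Gm12153 at 0.757 ± 0.145 and 3.35 ± 0.748 CPM (± SD, n = 3). Their log2 fold changes were 1.96 and 2.14. 2810433D01Rik rose with a wide spread, from 0.962, 1.07 and 0.951 CPM in control to 3.56, 1.79 and 2.62 CPM in induced libraries (log2 fold change 1.41, edgeR adjusted p 3.16e-04).

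The largest fall was that of Gm6093 (chromosome 13, 33562486 to 33569317, minus strand), with 19.6, 19.5 and 18.9 CPM in control and 0.956, 1.26 and 1.15 CPM in induced libraries. This is a drop from 19.4 ± 0.384 to 1.12 ± 0.155 CPM (± SD, n = 3), a log2 fold change of -4.10 (SE 0.14; edgeR adjusted p 2.03e-14). 11.7% of its exon bases overlap genes on the other strand.

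Lockd (chromosome 6, 134929092 to 134956798, plus strand), named for its place downstream of the cell cycle inhibitor gene Cdkn1b, was at 5.97, 5.45 and 7.21 CPM in control and 1.01, 0.841 and 1.10 CPM in induced libraries. The groups lay far apart, with a log2 fold change of -2.65 (SE 0.21; edgeR adjusted p 3.06e-09). Cdkn1b, whose start site is 8691 bases away on the same strand, fell far less, from 118 ± 2.31 to 89.3 ± 4.85 CPM (± SD, n = 3, and log2 fold change -0.40, edgeR adjusted p 2.92e-06). Prr33, Gm42788, Gm26760, 1700003M07Rik and Gm19705 had log2 fold changes of -1.70, -1.53, -1.38, -1.26 and -1.26 with levels of at most 3.77 CPM in any library.

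**Figure D3:**
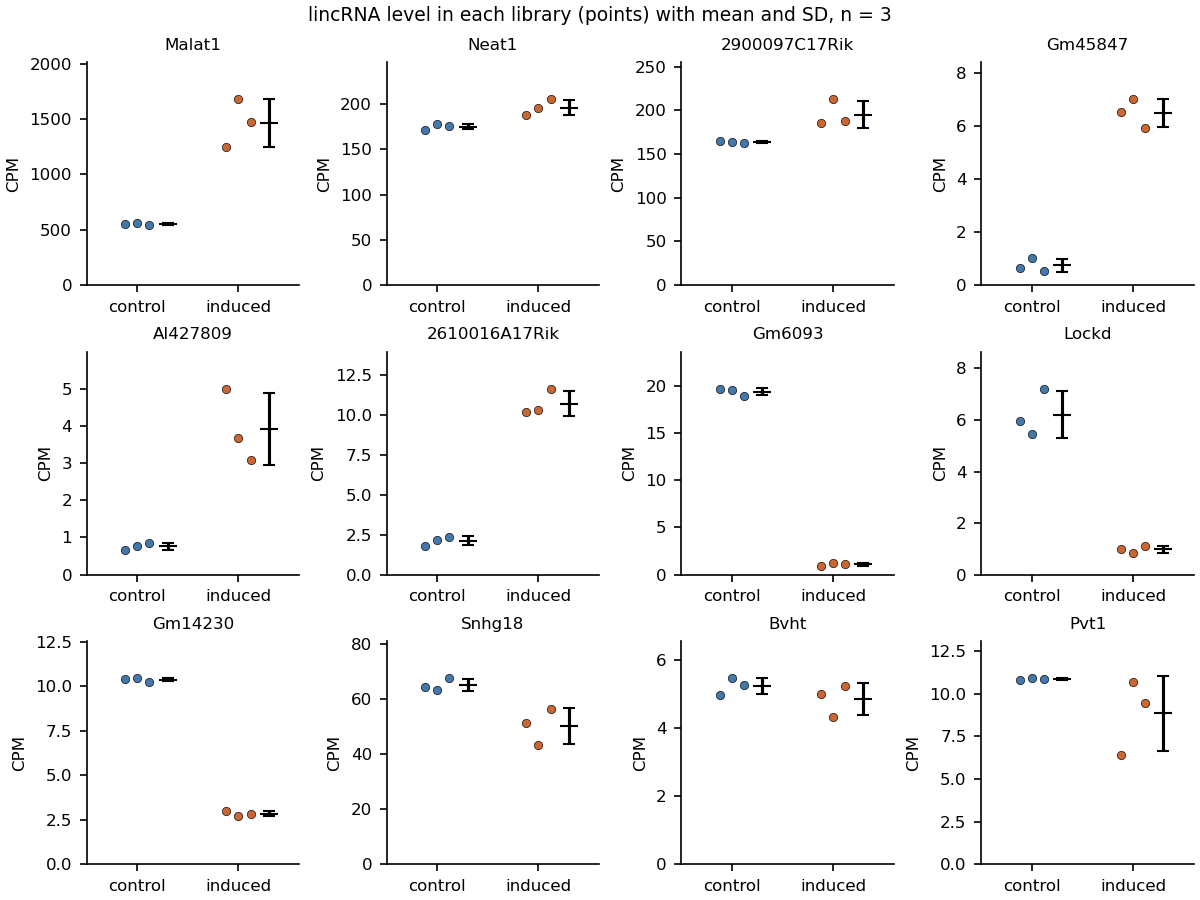
CPM of 12 lincRNAs in each control and induced library (points), with the mean and SD (n = 3) drawn beside them; each axis starts at 0. Gm6093, Lockd and Gm14230 drop well below the control range, the first 6 panels rise, and Bvht and Pvt1 were not called.

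Gm10076 (chromosome 14, 105681828 to 105682211, plus strand), next to Malat1 by FPKM (70.03 ± 8.57 in control and 32.8 ± 7.53 in induced cells), was lower with a log2 fold change of -1.11 (edgeR adjusted p 4.74e-07). RefSeq lists it as a pseudogene, and 69.8% of its 50-base words occur in other genes, mainly the ribosomal protein gene Rpl41, so its reads cannot be assigned with certainty. 1810058I24Rik, next by FPKM and listed as protein-coding by RefSeq, was at 116, 118 and 125 CPM in control and 136, 118 and 130.4 CPM in induced libraries and was not called (log2 fold change 0.10, edgeR adjusted p 0.152). Without induced replicate 2 it was 0.16 and passed.

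Of the cardiac and muscle list, 2 lincRNAs, Bvht and Carmn, were expressed, and no change was detectable in either at this depth. Bvht (Braveheart, chromosome 18, 61639542 to 61647472, plus strand), an RNA required for cardiac commitment of mouse embryonic stem cells, was at 4.96, 5.45 and 5.25 CPM in control and 4.99, 4.31 and 5.24 CPM in induced libraries. These ranges overlapped (log2 fold change -0.11, SE 0.15; edgeR adjusted p 0.547). Carmn, the gene beside it that is associated with the smooth muscle microRNAs miR-143 and miR-145, was at 0.911, 2.04 and 1.05 CPM and 0.849, 1.37 and 1.62 CPM (log2 fold change -0.06, SE 0.35; edgeR adjusted p 0.897). The sign of Carmn rests on single libraries, since the change was 0.38 without control replicate 2 and 0.17 without induced replicate 1. In the whole list of 15 cardiac and muscle RNAs, 10 were in the table, 4 were tested and none passed the test. The lincRNAs Miat, Chaer1 and Rubie had 3, 1 and 0 reads summed over control and 0 each over induced libraries, and Mhrt, the antisense RNA of the myosin heavy chain locus, had 0 reads in all 6 libraries.

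Pvt1 (chromosome 15, 62037986 to 62378096, plus strand), which shares a locus with the growth gene Myc, was at 10.8, 10.9 and 10.9 CPM in control and 6.42, 10.7 and 9.42 CPM in induced libraries. The controls were almost equal and the induced libraries scattered, and the log2 fold change of -0.29 (SE 0.14) did not pass the test (edgeR adjusted p 0.0808). Without induced replicate 2 it was -0.45 and passed, without induced replicate 1 it was -0.11 and did not, and with no filter on low counts it was -0.29 and passed. Myc, with its start site 52595 bases away, fell from 87.3 ± 2.51 to 27.9 ± 1.34 CPM (± SD, n = 3, and log2 fold change -1.65, edgeR adjusted p 2.17e-14).

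Trp53cor1, also called lincRNA-p21 for its place beside the p53 target Cdkn1a, had 18, 20 and 13 reads in control and 14, 19 and 18 reads in induced libraries, with no detectable difference (log2 fold change 0.06, SE 0.33; edgeR adjusted p 0.887). The sign turned without control replicate 3 (-0.10) and without induced replicate 2 (-0.02). 44.1% of its exon bases overlap other genes. Cdkn1a rose from 139 ± 4.91 to 256 ± 13.1 CPM (± SD, n = 3, and log2 fold change 0.88, edgeR adjusted p 4.05e-11). Gm14005, which RefSeq names Morrbid, is known as a regulator of myeloid cell lifespan. It was at 5.77, 6.52 and 6.31 CPM in control and 4.19, 3.21 and 4.03 CPM in induced libraries (log2 fold change -0.70, edgeR adjusted p 7.34e-04).

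Position gave the members a feature that the rule had not used. For 71 of the 233, a coding gene started within 5000 bases, and in 49 of these the pair was divergent, that is, on opposite strands and transcribed away from each other. In 41 of the 49 the start sites were within 1000 bases. Among the 157 lincRNAs detected throughout there were 35 divergent pairs within 5000 bases in which both genes were tested. In 8 of these both genes were called, and all 8 moved in the same direction. As a background, coding genes and their nearest coding neighbour gave 1444 such divergent pairs, each counted from both sides where both are nearest to each other, of which 566 had both genes called and 341 (60.2%) moved the same way. Pearson's r of the log2 fold changes was 0.797 over the 35 lincRNA pairs and 0.246 over the coding pairs. Without the pair of 2610016A17Rik and Dmrt2 it was 0.652, and the coding pairs without their own pair of largest change gave 0.168. Spearman's rho was 0.445 over the 35 lincRNA pairs and 0.171 over the coding pairs. These correlations are across genes of the same 6 libraries and are given as a description.

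The pair with the largest shift was 2610016A17Rik (chromosome 19, 25671134 to 25672253, minus strand) and Dmrt2, a transcription factor gene of the doublesex family that acts in somite and muscle precursor patterning, with start sites 167 bases apart. 2610016A17Rik was at 1.82, 2.19 and 2.35 CPM in control and 10.2, 10.3 and 11.6 CPM in induced libraries. Dmrt2 was at 32.3, 27.1 and 34.7 CPM and 139, 146 and 137 CPM. Both genes rose about equally, with log2 fold changes of 2.33 (SE 0.15; edgeR adjusted p 1.74e-10) and 2.16 (edgeR adjusted p 1.22e-14).

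Among the pairs that fell, Gm14230 (chromosome 2, 156833049 to 156839892, minus strand) was at 10.4, 10.4 and 10.3 CPM in control and 2.97, 2.68 and 2.83 CPM in induced libraries (log2 fold change -1.87, edgeR adjusted p 8.07e-10). Tgif2, a homeodomain corepressor of transforming growth factor signalling whose start site is 115 bases away, was at 6.13, 6.82 and 5.91 CPM and 2.39, 3.10 and 2.36 CPM (log2 fold change -1.26, edgeR adjusted p 3.19e-06). In neither gene did the groups overlap.

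Gm43050 lies 748 bases from Tbx5, a T-box factor of heart and forelimb development. It was at 2.78, 2.85 and 4.35 CPM in control and 1.59, 1.89 and 1.26 CPM in induced libraries (log2 fold change -1.07, edgeR adjusted p 9.77e-04), and Tbx5 at 14.9, 15.1 and 15.96 CPM and 9.82, 9.62 and 9.42 CPM (log2 fold change -0.67, edgeR adjusted p 5.94e-06). Both fell without overlap of the groups.

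The other falling pairs were Gm43672 (-0.89) with the corepressor subunit gene Tbl1xr1 (-0.42), 4833418N02Rik (-0.88) with Ttc7 (-0.32), Snhg18 with the axon guidance gene Sema5a (-0.80), and Gm42047 (-0.65) with Klhdc4 (-0.43), all as log2 fold changes. 64.8% of the 50-base words of Gm42047 occur in other transcripts, and its start site is 3678 bases from that of Klhdc4. The remaining rising pair was 4833445I07Rik (0.65, edgeR adjusted p 0.0242) with Ndufaf3 (0.62), an assembly factor of respiratory complex I. In 1 divergent pair the lincRNA was called while its neighbour was not, as Gm16001 had a log2 fold change of -0.72 and Ogfod2, 33 bases away, one of 0.07 (edgeR adjusted p 0.432).

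**Figure D4:**
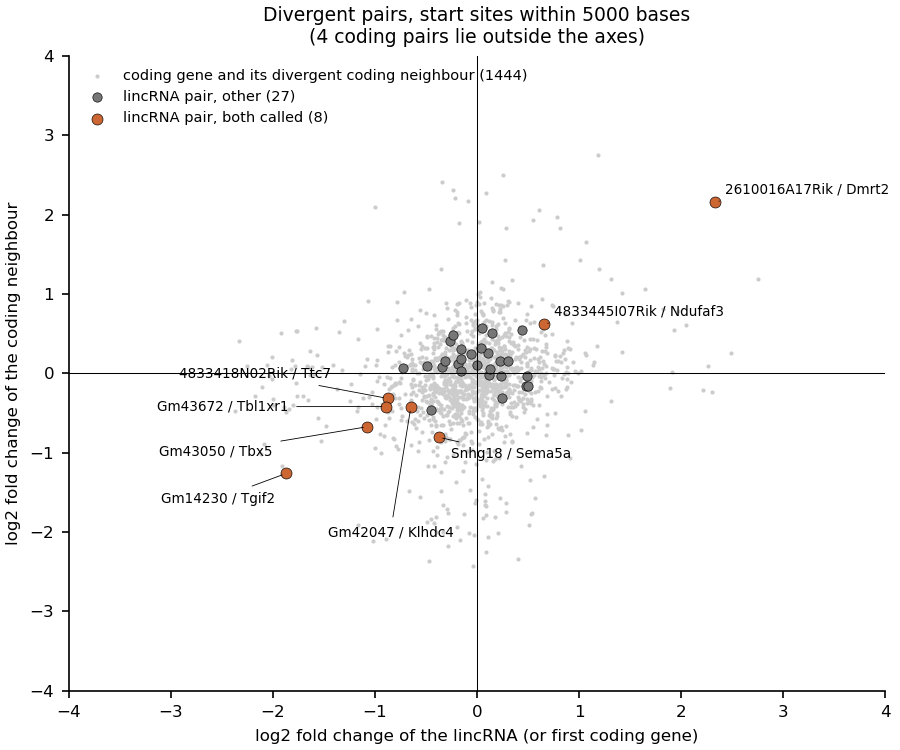
Log2 fold change of the coding neighbour against that of the lincRNA for 35 divergent pairs with start sites within 5000 bases, over the same plot for 1444 coding pairs in grey, of which 4 lie outside the axes. The 8 pairs in which both genes were called (orange) sit in the upper right or lower left part.

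A similar arrangement with overlapping heads was seen for Gm26902, which starts 327 bases from the start site of Ch25h, the cholesterol 25-hydroxylase gene, on the other strand. Gm26902 was at 4.76, 4.68 and 3.10 CPM in control and 1.17, 1.68 and 2.51 CPM in induced libraries (log2 fold change -1.22, edgeR adjusted p 3.77e-04), and Ch25h fell from 99.98 ± 3.69 to 19.4 ± 0.627 CPM (± SD, n = 3, and log2 fold change -2.37). 4.29% of the exon bases of Gm26902 overlap Ch25h on the other strand, and since the strand setting of the counting is not stated, reads of the overlap cannot be told apart.

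Promoter windows of RefSeq (250 bases before to 50 after the start, GRCm38.p6) matched 129 of the 233 members (55.4%), which is under the 80% needed for a comparison of promoters over the whole set, so such a comparison was void. For 3 lincRNAs of called divergent pairs the window reached the deposited start within 14 bases. They are shown because the window holds the start of the lincRNA and the stretch between it and its neighbour. Sequences run 5′ to 3′ on the minus strand, on which these 3 lincRNAs lie, and capitals mark CG dinucleotides, the sites of DNA methylation, which read the same on both strands. 2610016A17Rik was read at chr19:25672190-25672489, Snhg18 at chr15:32244613-32244912 and 4833418N02Rik at chr17:87282765-87283064.
2610016A17Rik: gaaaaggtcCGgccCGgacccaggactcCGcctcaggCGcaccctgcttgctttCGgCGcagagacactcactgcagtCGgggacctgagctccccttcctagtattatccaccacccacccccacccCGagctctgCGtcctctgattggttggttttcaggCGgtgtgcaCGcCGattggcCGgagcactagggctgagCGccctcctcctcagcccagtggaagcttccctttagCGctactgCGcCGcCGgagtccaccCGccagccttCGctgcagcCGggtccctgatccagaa
Snhg18: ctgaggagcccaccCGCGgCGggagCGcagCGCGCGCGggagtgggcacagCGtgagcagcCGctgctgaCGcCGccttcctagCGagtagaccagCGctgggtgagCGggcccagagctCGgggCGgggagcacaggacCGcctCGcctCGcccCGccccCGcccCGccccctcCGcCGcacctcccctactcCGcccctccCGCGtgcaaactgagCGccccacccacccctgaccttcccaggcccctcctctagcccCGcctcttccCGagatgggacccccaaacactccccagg
4833418N02Rik: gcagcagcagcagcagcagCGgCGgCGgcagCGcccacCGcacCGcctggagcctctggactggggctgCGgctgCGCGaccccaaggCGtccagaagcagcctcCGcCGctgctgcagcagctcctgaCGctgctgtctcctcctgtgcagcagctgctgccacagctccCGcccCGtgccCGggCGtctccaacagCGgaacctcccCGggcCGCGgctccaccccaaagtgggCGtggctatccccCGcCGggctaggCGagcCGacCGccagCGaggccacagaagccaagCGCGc
The windows hold 21, 31 and 30 CG dinucleotides in this order, and 76.9%, 90.5% and 89.4% of all RefSeq windows hold as many or fewer. Over 32851 RefSeq promoter windows of the same length the median was 7, and 94.6% held at least 1. Methylation itself was not measured in these libraries.

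Among the 34 lincRNAs that reached the minimum in induced libraries alone, 6 had 0 reads in all 3 control libraries, as had 51 of the 617 genes of any class with that pattern of detection. A count of 0 over the 3 control libraries allows up to 0.0505 CPM (3 reads over the group), counting error only, and the bounds below are taken against this floor. Gm47223 (ENSMUSG00000112636, chromosome 10, 103507362 to 103566565, plus strand) was by far the highest, with 185, 181 and 191 reads or 9.82, 9.51 and 10.00 CPM in the induced libraries, at least 194-fold higher. Gm40518 (chromosome 9, 48132504 to 48158965, minus strand) had 67, 43 and 78 reads, at least 65.3-fold higher, and its divergent neighbour Nxpe4, 3058 bases away, was at 5.97, 6.67 and 6.06 CPM in control and 6.16, 5.67 and 5.92 CPM in induced libraries (log2 fold change -0.07, edgeR adjusted p 0.642). AW112010 (chromosome 19, 11047617 to 11050566, minus strand), an interferon-induced transcript of immune cells, had 46, 32 and 46 reads, at least 43.1-fold higher, in libraries where 5 of the 7 leukocyte markers had no read, Cd68 was higher and Csf1r lower. The part of these markers in its level was not tested.

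G730013B05Rik (chromosome 16, 50526245 to 50559459, plus strand) had 12, 22 and 14 reads in the induced libraries, at least 16.7-fold higher. For AC159200.1 (42, 57 and 54 reads, at least 53.2-fold higher) and Gm47939 (17, 22 and 19 reads, at least 20.1-fold higher), 78.2% and 88.7% of the 50-base words occur in other transcripts, mainly Noct and Gm43549, and their counts are uncertain. Gm4316 had 1, 2 and 0 reads in control and 73, 56 and 81 reads in induced libraries. The ratio of the pooled reads was 73.0 (exact 95% interval 24.6 to 357, counting error only). This interval leaves out the spread between libraries and is no test, since the rule selected Gm4316 on these same reads. 28.9% of the 50-base words of Gm4316 also lie in other transcripts. E330013P04Rik was at 0.759, 0.458 and 0.450 CPM in control and 2.34, 2.73 and 1.94 CPM in induced libraries.

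For the members with 0 control reads, 2 promoter windows met the deposited start base for base, and they are shown in the same way, AW112010 at chr19:11050517-11050816 on the minus strand and G730013B05Rik at chr16:50525995-50526294 on the plus strand.
AW112010: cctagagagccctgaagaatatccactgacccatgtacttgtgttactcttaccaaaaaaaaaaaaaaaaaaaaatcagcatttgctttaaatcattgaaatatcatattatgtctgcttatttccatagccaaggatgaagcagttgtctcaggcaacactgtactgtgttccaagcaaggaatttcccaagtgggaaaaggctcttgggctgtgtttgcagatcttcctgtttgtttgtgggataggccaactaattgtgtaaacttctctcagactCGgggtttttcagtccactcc
G730013B05Rik: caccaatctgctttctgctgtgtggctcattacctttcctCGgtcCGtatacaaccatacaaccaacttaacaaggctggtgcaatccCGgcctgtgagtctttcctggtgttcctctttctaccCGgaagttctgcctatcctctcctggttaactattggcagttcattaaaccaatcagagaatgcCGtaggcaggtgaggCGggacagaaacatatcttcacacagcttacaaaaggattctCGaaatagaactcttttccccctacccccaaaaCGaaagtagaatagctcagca
They hold 1 and 8 CG dinucleotides, and 14.1% and 54.2% of all RefSeq windows hold as many or fewer.

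9330175E14Rik, another gene of this class, was at 0.203, 0.407 and 0.450 CPM in control and 0.796, 0.788 and 0.628 CPM in induced libraries. It overlaps the head of Nlrc5, the transactivator of major histocompatibility class I genes. Nlrc5 rose from 2.39 ± 0.185 to 10.7 ± 1.45 CPM (± SD, n = 3, and log2 fold change 2.15, edgeR adjusted p 7.37e-10). The rule selected 9330175E14Rik on its induced reads, so a shared change of the pair was not tested. Without the strand setting, reads of any overlap cannot be told apart. Lncenc1, an RNA of naive embryonic stem cells, had 16, 8 and 5 reads in control and 24, 23 and 23 reads in induced libraries.

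Of the 42 lincRNAs that reached the minimum in control libraries alone, none had 0 reads in all induced libraries. The highest were Gm15328 (2.18, 2.39 and 2.75 CPM in control and 0.849, 0.420 and 0.890 CPM in induced libraries), Gm4544 (2.13, 1.88 and 1.95 and 0.319, 0.683 and 0.419 CPM), D730003I15Rik, Gm34030, Gm30074 and Gm26682. The last 4 had control means of 1.77 ± 0.591, 1.65 ± 0.312, 1.58 ± 0.216 and 1.53 ± 0.282 CPM and induced means of 0.823 ± 0.473, 0.683 ± 0.360, 0.350 ± 0.247 and 0.351 ± 0.0827 CPM (± SD, n = 3). Of these only D730003I15Rik overlapped between the groups. Gm34030 shares 74.4% of its exon bases with 5033428I22Rik on the other strand, and both lie beside Hand2, a cardiac transcription factor gene that fell from 29.1 ± 2.52 to 18.3 ± 0.683 CPM (± SD, n = 3, and log2 fold change -0.67, edgeR adjusted p 9.11e-07). The start site of 1700018A04Rik is 24 bases from that of the forkhead factor gene Foxf2. 1700018A04Rik was at 1.32, 1.02 and 1.15 CPM in control and 0.478, 0.420 and 0.628 CPM in induced libraries. Foxf2 fell from 24.6 ± 1.45 to 15.05 ± 1.18 CPM (± SD, n = 3, and log2 fold change -0.71, edgeR adjusted p 8.11e-07). The rule selected Gm34030 and 1700018A04Rik on their control reads, so a shared change with Hand2 or Foxf2 was not tested.

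**Figure D5:**
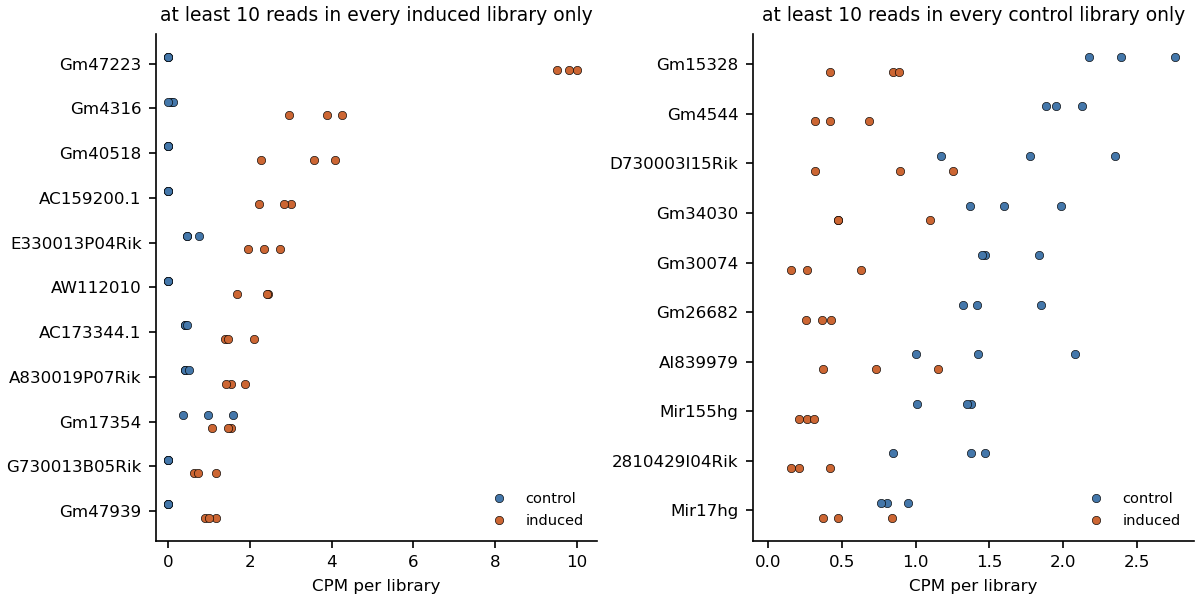
CPM in each control (blue) and induced (orange) library for lincRNAs that reached 10 reads in every library of one group only; left, 11 genes of the induced class, and right, 10 genes of the control class. On the left 6 genes lie at 0 in all control libraries, and on the right no gene lies at 0 in all induced libraries.

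RefSeq places microRNAs within the span of 9 members on the same strand, 15 hairpins in all, which lie in exons of the host except for 1 in an intron of Snhg10. For each hairpin of the 5 hosts described next, a mature arm is printed from RefSeq (GRCm38.p6) with the seed, bases 2 to 8 that pair with targets, in capitals. In Mir17hg, a growth-promoting cluster that Myc activates, miR-17-5p and miR-20a-5p share 1 seed and miR-19a-3p and miR-19b-3p another.
mmu-miR-155-5p: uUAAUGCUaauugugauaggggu
mmu-miR-17-5p: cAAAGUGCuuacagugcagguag
mmu-miR-20a-5p: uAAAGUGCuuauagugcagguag
mmu-miR-18a-5p: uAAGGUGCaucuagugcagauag
mmu-miR-19a-3p: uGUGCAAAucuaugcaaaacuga
mmu-miR-19b-3p: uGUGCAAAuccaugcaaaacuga
mmu-miR-92a-3p: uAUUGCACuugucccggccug
mmu-miR-31-5p: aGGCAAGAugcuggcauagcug
mmu-let-7d-5p: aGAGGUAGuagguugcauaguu
mmu-miR-191-5p: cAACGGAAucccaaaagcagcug
mmu-miR-425-5p: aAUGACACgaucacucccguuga
Mir155hg (chromosome 16, 84703167 to 84715245, plus strand), host of miR-155, a microRNA of inflammatory signalling, had 20, 27 and 27 reads in control and 5, 6 and 4 reads in induced libraries. Mir17hg (chromosome 14, 115042879 to 115046727, plus strand) had 16, 15 and 19 and 7, 9 and 16 reads, which overlapped between the groups. Both reached the minimum in control libraries alone, so no test of them is given.

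AL805899.1, which holds miR-31, was at 4.05, 4.07 and 4.15 CPM in control and 3.56, 3.63 and 4.19 CPM in induced libraries and was not called (edgeR adjusted p 0.575). 6720427I07Rik, which holds let-7d, was nearly level at 2.68, 2.95 and 2.55 CPM and 2.81, 2.78 and 2.62 CPM (log2 fold change 0.01, SE 0.20). 4833445I07Rik, which holds miR-191 and miR-425 and was named above as the neighbour of Ndufaf3, rose from 1.27, 1.53 and 1.55 CPM to 1.96, 2.36 and 2.51 CPM. Host reads are a level of the host transcript, and the mature microRNAs were not measured. The separate list of microRNA hosts, whatever their class, is not complete and does not hold AL805899.1, 6720427I07Rik or 4833445I07Rik. Of 5 on it that reached 10 reads in all libraries 3 were higher and none lower, beside 32.4% and 33.0% of all such genes (median log2 fold change 0.38). Mir22hg, Mir99ahg and Dleu2 were higher, and Carmn and Dnm3os were not called. The largest change of these 5 was that of Mir22hg, which rose from 15.2 ± 0.495 to 39.8 ± 2.11 CPM (± SD, n = 3).

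The remaining lists held few members that could be tested. On the list of 9 RNAs of the Hox clusters, none was a member, 2 had at least 10 reads in all libraries and neither was called. Of 10 RNAs put on the innate immune list, 3 were members, Gm14005, Mir155hg and Lncenc1, the last described above as a stem cell RNA. On this list 2 had at least 10 reads in all libraries, Gm14005, which was lower, and Dleu2, which was higher. Of the stress and growth control RNAs, 4 had at least 10 reads in all libraries and 1, Gas5, was lower. The shares called over all such genes are those given above.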

How the data were processed

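RNA was sequenced from 3 control and 3 5-azacytidine-induced samples of immortalized cardiosphere-derived cells. Per the labels the libraries were made with the NEBNext Ultra RNA kit. The study's methods name either that kit or an oligo(dT) method, without saying which was used for these samples. The authors deposited raw read counts per gene and, beside them, FPKM values per gene, with the coordinates, strand, length and class of each gene. The submitters' processing notes name HISAT2 2.0.5, featureCounts 1.5.0-p3, DESeq2 1.16.1 and the build mm10, and the strand setting is not given in the sources used here. Of the 233 members, 226 have the coordinates of GENCODE M21 (GRCm38). Gene ontology tables of the authors' comparison, which also hold p-values, were not used.

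Tests on the counts used edgeR 4.0.16 under R 4.3.3. Genes passed filterByExpr (minimum count 10, minimum total 15), which kept 14246 of 54532 genes and 99.9% of the reads. TMM factors scaled the libraries, and the quasi-likelihood test compared the groups without covariates. P-values were adjusted after Benjamini and Hochberg over all genes tested, with a threshold of 0.05. Of the 233 members 230 entered the fit, and calls are given for the 157 with at least 10 reads in all libraries. Totals were 19041133 to 19823369 reads per library, and the biological coefficient of variation was 5.82%. Chi-square per degree of freedom between libraries of 1 group was 2.56 to 3.40 for controls and 4.68 to 8.91 for induced libraries, so no library was a copy of another. The samples are described as separate, but nothing says that they came from separate cultures, so p-values measure only the spread between these samples, which may be technical. Intervals and floors cover counting error only. FPKM was used for levels between genes and in limma 3.58.1 as an alternative. The test was checked on simulated data.

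For each member the coding gene with the nearest start site was taken from the deposited coordinates, and 50-base words were compared with all GENCODE M21 transcripts. Sequences are those of RefSeq. Named genes were those on the role lists, the 8 largest rises and 8 largest falls without overlap of the groups, the 6 highest of each class detected in 1 group, those with 0 reads in the other group, the 5 highest by FPKM and coding neighbours within 5000 bases. The other genes of called pairs within 5000 bases, of near pairs at Foxf2, Hand2, Nlrc5 and Ogfod2, of the microRNA hosts, at the edge of the read minimum and of the more distant neighbours Abca1, Cdkn1b, Cdkn1a and Myc were named after their values were seen. The members and lists were chosen with earlier results of these data known. Alternatives were DESeq2 1.42.0, median-ratio factors, library totals, other filters and thresholds, each library left out, a replicate block, limma on deposited FPKM (log2 with a pseudocount of 1 or 0.1), other member minimums and other distances.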

Additional observations from a re-analysis of the deposited data

How the results depend on the processing

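The 63 calls among the 157 lincRNAs detected throughout (23 higher, 40 lower) ranged from 44 with DESeq2, all shared with edgeR, to 73 with limma on log2(FPKM + 1), and from 51 to 61 when each library was left out in turn (18 to 21 higher, 31 to 40 lower). With library totals alone 62 and with median-ratio factors 64 were called. Leaving out members that overlap another gene or start within 5000 bases after a coding gene left 63 lincRNAs, of which 24 were called. These were 11 higher and 13 lower, a more even split than the 23 and 40 among the 157. What moved the split was not tested. Without members that share over 20% of exon bases or 50-base words, an alternative chosen after seeing the data, 52 of 136 were called. Calls over all genes were 8514 to 9348 with a library left out, beside 9225. Samples with the same replicate number did not deviate together (correlations of -0.03, -0.03 and 0.03), so they share only a number, and a replicate block left 63 lincRNA calls and gave 9063 of all genes. Between 13 and 15 of the listed snoRNA hosts were lower with a library left out. Pearson's r of divergent pairs was 0.667 within 50000 bases and, chosen after seeing the data, 0.652 without the pair of 2610016A17Rik. A minimum of 5 or 20 reads gave 347 and 156 members. For 30 named lincRNAs, 410 of 419 values under alternatives kept direction and side of the threshold, 1 (Snhg12) fell below it and 4 passed it, namely 1810058I24Rik without a library and Pvt1 without a library, with no filter and, at -0.31, with the replicate block. The sign turned in 4 values, none of them called: Carmn, which ran from -0.26 to 0.38 with each library left out, turned to 0.38 and 0.17, and Trp53cor1, which ran from -0.10 to 0.19, turned to -0.10 and -0.02. Low counts limit most members: the median level of the 157 was 2.34 CPM, and under 2 CPM a missed call does not show that levels were equal.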
